A study of Mus musculus with 4 samples.

Results

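In this series of mouse T cells, 57 genes stood at least 2-fold lower where STAT3 had been deleted and at least 2-fold higher where STAT5 had been deleted. They were chosen by their measured values from 12440 genes compared, so the differences between each deficient culture and its own control describe the choice and are not findings. In all, 69 genes met both thresholds (0.555% of the genes compared), and 12 of them were left out by symbol: Atp6v0d2, Batf, Cxcr6, Il1r1, Il7r, Pou2af1, Slc12a1, Slc16a9, Slc25a26, Slc34a3, Slc4a2 and Tnfrsf8. The 57 genes include Tgfbi, Tmem176a, Pltp and Gem and hold matrix and adhesion proteins, growth factors, metallothioneins and receptors.

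The cells were naive CD4+CD44-CD62L+ T cells, taken from C57BL/6J spleen and lymph nodes, sorted, and cultured for 72 h with plate-bound anti-CD3, anti-CD28, IL-6 (20 ng/ml), TGF-β (2 ng/ml) and anti-IL-4. All mice carried the OT2 T cell receptor transgene. There were 4 groups with 1 array each. STAT3-deficient cells (CD4-Cre stat3 fl/fl OT2) and STAT3 wild-type cells (stat3 fl/fl OT2) had IL-2 blocked by antibody (10 µg/ml). For STAT5-deficient cells (CD4-Cre stat5 fl/fl OT2) and STAT5 wild-type cells (stat5 fl/fl OT2), IL-2 was added at 100 IU/ml. The Cre is driven by the Cd4 promoter and so acts in T cells, and the controls carry the floxed alleles without Cre. The genotype entries of both deficient samples carry CD4-Cre but end by calling the cells wild type, against their titles, which were followed here. The labels state neither the age and sex of the mice nor how many mice each culture came from.

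STAT3 is switched on by IL-6 and IL-21 and drives the Th17 fate, in which T cells make IL-17. STAT5 is switched on by IL-2, which is known to restrain that fate in mouse cells. Both factors recognise the same palindromic DNA motif, TTCNNNGAA. The design sets the loss of each factor against its own control under Th17 conditions.

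Levels are the deposited values, read as log2, so a difference of 1 is 2-fold. With 1 array per group no difference has a replicate check, no test was run and no p-value is given. The median of all values, 6.20, was taken as the level under which a signal is not told from background. The targeted genes followed the titles: Stat3 read 9.93 in STAT3-deficient and 12.87 in STAT3 wild-type cells, and Stat5a read 5.91 in STAT5-deficient and 10.92 in STAT5 wild-type cells. Among the 7 CD4 T cell marker genes measured, 0 passed 2-fold in either comparison. Over all genes compared, 7.23% were lower and 2.85% higher without STAT3, and 1.86% were higher and 1.74% lower without STAT5. With 7 genes, 0 cannot be told apart from these shares. The median gene differed by -0.20 without STAT3 and by 0.06 without STAT5, and each difference below can be read against these shifts. In these bulk cultures, fewer cells making a transcript and less transcript per cell cannot be told apart.

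**Figure D1:**
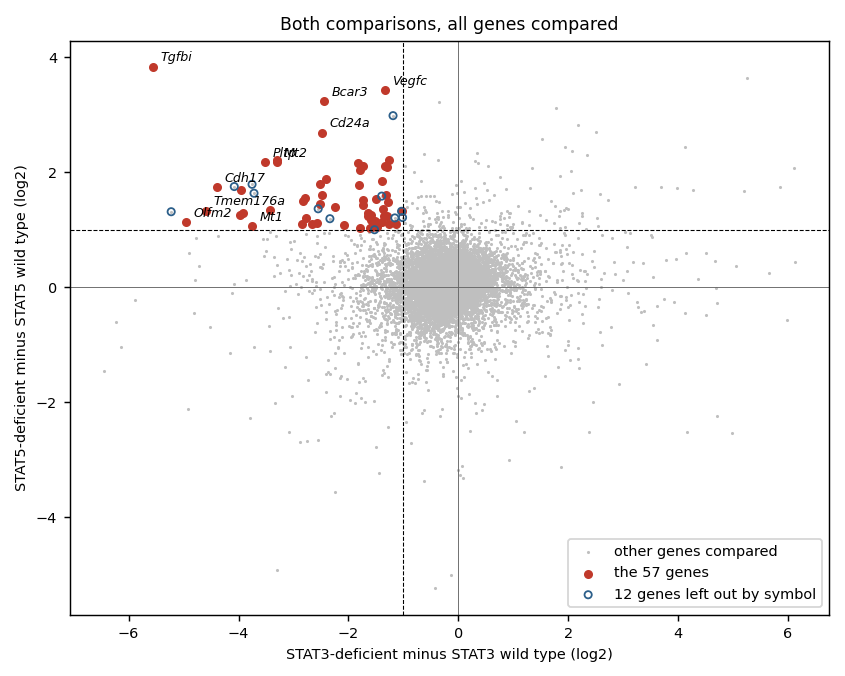
Each point is 1 of 12440 genes, with the STAT3-deficient minus STAT3 wild-type difference on the x axis and the STAT5-deficient minus STAT5 wild-type difference on the y axis, both in log2. The 57 genes (filled) and the 12 left out by symbol (open) fill the corner beyond -1 and 1 that chose them, and Tgfbi, at -5.55 and 3.83, lies farthest out.

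How common the opposite pattern was can be read from the pairs of comparisons, which share no array. Without STAT3, 900 genes were lower (7.23%) and 354 higher (2.85%), and without STAT5, 231 were higher (1.86%) and 217 lower (1.74%). The 69 genes meeting both made up 7.67% of the 900 and 29.9% of the 231. Genes lower without STAT3 were about as often lower without STAT5: 68 genes did that (0.547% of all compared), and the 900 genes had a median STAT5 difference of 0.04, against 0.06 over all genes. The reverse pattern, higher without STAT3 and lower without STAT5, was met by 22 genes (0.177%), and 47 genes (0.378%) were higher in both. Among the 900 genes lower without STAT3, opposite and parallel differences without STAT5 thus occurred in nearly equal numbers.

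Sizes were uneven among the 57 genes. The difference without STAT3 ran from -5.55 to -1.03 with a median of -1.79, and the difference without STAT5 from 1.02 to 3.83 with a median of 1.40. For 43 genes the STAT3 difference was the larger in size, and for 14 the STAT5 difference. Without STAT3, 26 genes passed 4-fold and 12 passed 8-fold, while without STAT5, 13 passed 4-fold and 3 passed 8-fold (Tgfbi, Vegfc and Bcar3). With values under 6.20 raised to it, 16 passed 4-fold and 10 passed 8-fold without STAT3, and 10 passed 4-fold and 1, Tgfbi, passed 8-fold without STAT5. STAT3-deficient cells gave values under 6.20 for 35 of the 57 genes and STAT5 wild-type cells for 18, so the sizes of those differences are uncertain: with every value under 6.20 raised to it, 37 of the 57 genes still passed both thresholds. All 4 values lay above 6.20 for 22 genes, and in 20 the highest value stayed under 8.

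**Figure D2:**
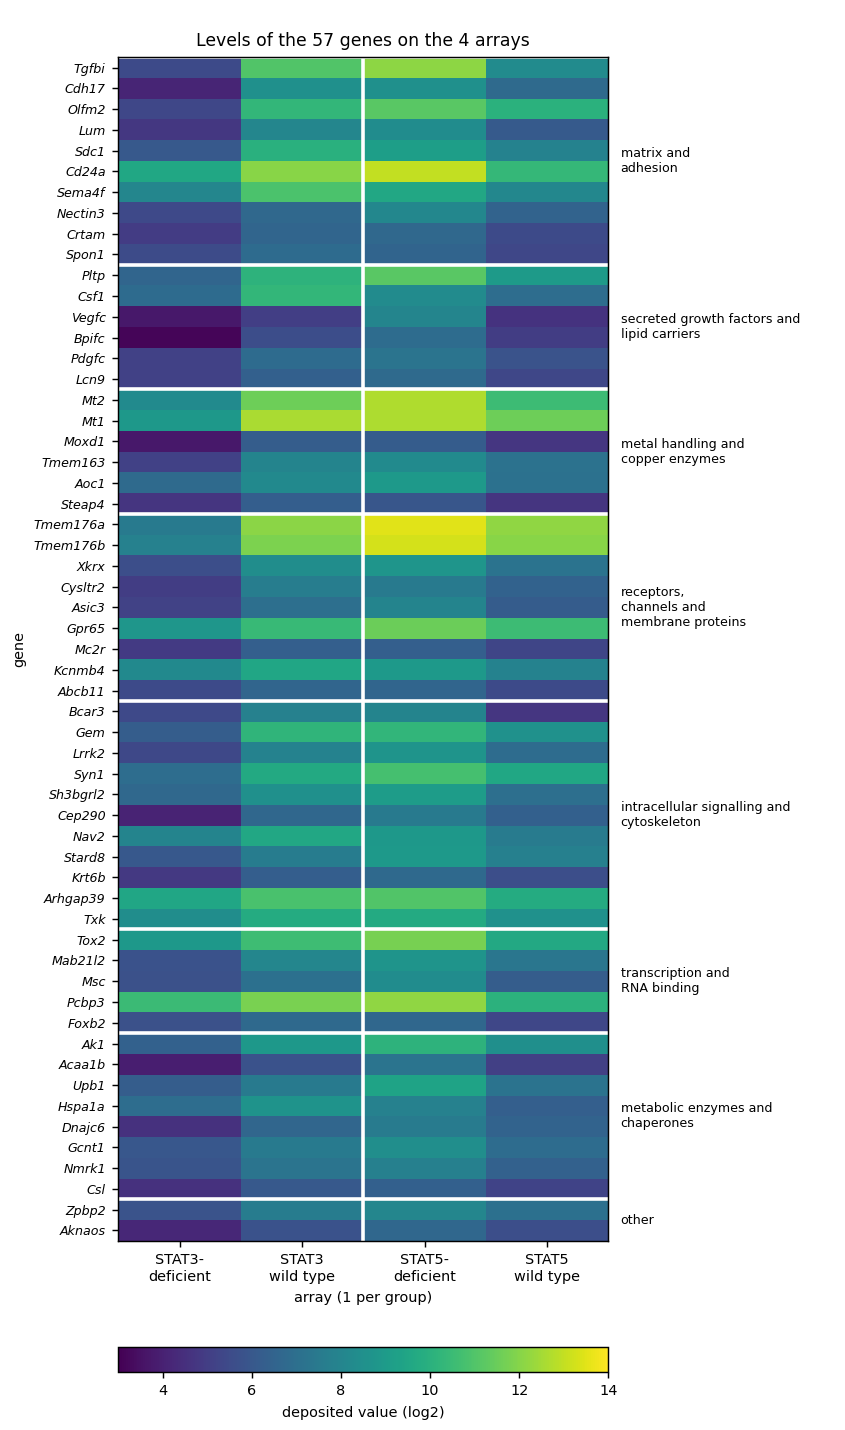
The heat map gives the deposited log2 value (colour) of each of the 57 genes (rows, grouped by what the product does) on the 4 arrays (columns). In every row the STAT3-deficient value lies under its wild type and the STAT5-deficient value above its own, as the choice of genes requires.

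The extracellular matrix and cell adhesion account for 10 genes, with median differences of -3.06 and 1.55. Tgfbi had the widest gap between both differences, also with values under 6.20 raised to it. Cdh17 and Olfm2 came next by the values as deposited, but after raising low values Tmem176a, Pltp, Gem and Mt2 stood ahead of both. Tgfbi encodes a secreted matrix protein, named for its induction by TGF-β, that binds collagens and integrins. It read 5.47 in STAT3-deficient against 11.03 in STAT3 wild-type cells (at least 28.4-fold lower, counting the first value as 6.20), and 12.15 in STAT5-deficient against 8.32 in STAT5 wild-type cells (14.3-fold higher). Its STAT3-deficient value is under 6.20, and the other 3 lie well above it. Cdh17, a cadherin best known from intestinal epithelium, read 4.15 in STAT3-deficient against 8.54 in STAT3 wild-type cells and 8.53 in STAT5-deficient against 6.79 in STAT5 wild-type cells. Olfm2, a secreted olfactomedin-domain glycoprotein, read 5.34 in STAT3-deficient against 10.30 in STAT3 wild-type cells and 11.17 in STAT5-deficient against 10.04 in STAT5 wild-type cells. The 2 high values of Cdh17, in cells without STAT5 and in STAT3 wild-type cells, were nearly equal, while Olfm2 was high on every array with STAT3 present.

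Lum encodes lumican, a small proteoglycan that organises collagen fibres. It read 4.76 in STAT3-deficient against 8.06 in STAT3 wild-type cells, and 8.34 in STAT5-deficient against 6.13 in STAT5 wild-type cells. Sdc1, which encodes the heparan sulphate proteoglycan syndecan-1, read 6.05 in STAT3-deficient against 9.97 in STAT3 wild-type cells and 9.16 in STAT5-deficient against 7.86 in STAT5 wild-type cells. Both were under the background level in STAT3-deficient cells, and Lum also in STAT5 wild-type cells. Cd24a, a heavily glycosylated surface protein anchored by a lipid, read 9.57 in STAT3-deficient against 12.04 in STAT3 wild-type cells and 13.00 in STAT5-deficient against 10.31 in STAT5 wild-type cells. Sema4f, a semaphorin, read 8.07 in STAT3-deficient against 10.90 in STAT3 wild-type cells and 9.59 in STAT5-deficient against 8.09 in STAT5 wild-type cells. All 4 values of both genes stood above background, and their low values in the 2 pairs lay within 2-fold of each other. The adhesion genes Nectin3 and Crtam and the matrix gene Spon1 were chosen on smaller differences, between -1.64 and -1.32 without STAT3 and between 1.23 and 1.61 without STAT5.

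The matrix list to which Tgfbi and Olfm2 belong was mixed. Of its 16 genes above background, 6 were lower and 1 higher without STAT3, and 3 were higher and 1 lower without STAT5. Over all genes compared, 7.23% were lower and 2.85% higher without STAT3, and 1.86% were higher and 1.74% lower without STAT5. The list's medians were -0.50 and 0.09, against -0.20 and 0.06 over all genes. Its 2 genes past both thresholds were Tgfbi and Olfm2, against 0.555% of all genes compared. The list was chosen with earlier results of these data known, so nothing is drawn from that contrast. Timp1, an inhibitor of matrix proteases, was at -5.89 without STAT3 and -0.22 without STAT5. Ecm1 was at -2.78 and -1.21, lower in both. The same shares over all genes stand beside the 16 TGF-β response genes. Of these 16, 5 were lower and 2 higher without STAT3, and 2 were higher and 1 lower without STAT5. Tgfbi was the 1 gene of that list past both thresholds, and Smad3, a mediator of TGF-β signalling, was at -2.40 without STAT3 and -0.16 without STAT5. Of 7 cadherin relatives of Cdh17 compared, 0 passed 2-fold in either comparison, with Cdh23 at -0.69 and 0.13. With so few genes, 0 cannot be told apart from the shares over all genes.

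A further 6 genes encode secreted growth factors or proteins of the lipid carrier families. Pltp, the phospholipid transfer protein of plasma, read 6.61 in STAT3-deficient against 10.12 in STAT3 wild-type cells and 11.18 in STAT5-deficient against 9.0 in STAT5 wild-type cells. Csf1, the growth factor of macrophages, read 6.86 in STAT3-deficient against 10.29 in STAT3 wild-type cells and 8.29 in STAT5-deficient against 6.94 in STAT5 wild-type cells. Csf1 was highest in STAT3 wild-type cells, and its values in STAT3-deficient and STAT5 wild-type cells were nearly equal. Its relative Csf2, which encodes GM-CSF, went the other way in both pairs, at 4.17 without STAT3 and -2.52 without STAT5. Vegfc, a growth factor of lymphatic vessels, read 3.72 in STAT3-deficient against 5.06 in STAT3 wild-type cells and 8.02 in STAT5-deficient against 4.60 in STAT5 wild-type cells. It was above background in STAT5-deficient cells alone, so its STAT3 difference lies wholly between values under 6.20. Bpifc, of the lipid-binding BPI fold family, read 3.17 in STAT3-deficient against 5.59 in STAT3 wild-type cells and 6.90 in STAT5-deficient against 5.01 in STAT5 wild-type cells, with the same limit. Pdgfc, a platelet-derived growth factor, and Lcn9, a lipocalin, differed by -1.73 and -1.28 without STAT3 and by 1.42 and 1.49 without STAT5.

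Metal handling proteins and copper enzymes made up 6 genes. Among them are the metallothioneins, small cysteine-rich proteins that bind zinc and copper and are induced by these metals. Mt2 read 8.28 in STAT3-deficient against 11.58 in STAT3 wild-type cells and 12.69 in STAT5-deficient against 10.52 in STAT5 wild-type cells. Mt1 read 8.86 in STAT3-deficient against 12.61 in STAT3 wild-type cells and 12.65 in STAT5-deficient against 11.58 in STAT5 wild-type cells. All 8 values stood above background. The probe set behind Mt1 can match several transcripts, and another Mt1 probe set differed by -0.44 without STAT3 and -0.19 without STAT5. Mt3, a relative, was at -0.27 and 0.73. In the list of metallothionein and redox genes, the other 7 genes compared were all within 2-fold in both comparisons. Among them was Hmox1, the heme oxygenase, at -0.88 and 0.06. Most genes stayed within 2-fold: 11186 of the 12440 compared without STAT3 and 11992 without STAT5.

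The promoters of both genes are shown because their known metal response elements can be looked for by sequence. The windows are from RefSeq (GRCm38.p6), 5′ to 3′ on the + strand, from 250 bases before to 50 after the gene's start. Capitals mark the core TGCACNC or TGCGCNC on either strand, a motif added after the values were seen. It occurred for 19 of the 46 genes with a window (41.3%), against 28.2% of 27025 genes, and in 21 of their 66 windows (31.8%), against 25.7% of 32851 windows. Mt2 is at chr8:94172368-94172667 and Mt1 at chr8:94178839-94179138.
Mt2: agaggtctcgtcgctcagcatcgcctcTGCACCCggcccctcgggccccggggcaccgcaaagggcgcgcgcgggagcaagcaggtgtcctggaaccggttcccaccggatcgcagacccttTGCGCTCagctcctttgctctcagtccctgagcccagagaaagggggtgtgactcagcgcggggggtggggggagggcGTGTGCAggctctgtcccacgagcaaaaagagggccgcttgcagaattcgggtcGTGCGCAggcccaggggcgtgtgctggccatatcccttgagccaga
Mt1: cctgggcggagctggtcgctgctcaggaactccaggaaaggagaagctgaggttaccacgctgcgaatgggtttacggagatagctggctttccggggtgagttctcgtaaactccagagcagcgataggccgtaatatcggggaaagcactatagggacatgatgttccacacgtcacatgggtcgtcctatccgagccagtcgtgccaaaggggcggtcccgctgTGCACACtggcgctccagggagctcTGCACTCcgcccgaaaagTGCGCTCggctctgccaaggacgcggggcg
The Mt2 window held 4 matches and the Mt1 window 3, and that of Mt2 also held TGACTCA, a match to the AP-1 motif TGANTCA at position -79 from the start. A match is a description of these letters and not a site of binding.

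The other genes of the metal group had smaller STAT3 differences. Tmem163, a zinc transporter, read 5.11 in STAT3-deficient against 7.95 in STAT3 wild-type cells and 8.26 in STAT5-deficient against 7.16 in STAT5 wild-type cells. Aoc1, a copper-containing amine oxidase that degrades histamine and polyamines, read 6.81 in STAT3-deficient against 8.20 in STAT3 wild-type cells and 8.94 in STAT5-deficient against 7.09 in STAT5 wild-type cells. Moxd1, a relative of the copper enzyme dopamine β-hydroxylase, read 3.72 in STAT3-deficient against 6.25 in STAT3 wild-type cells and 6.19 in STAT5-deficient against 4.74 in STAT5 wild-type cells. Steap4, a metalloreductase for iron and copper, read 4.71 in STAT3-deficient against 6.30 in STAT3 wild-type cells and 5.96 in STAT5-deficient against 4.70 in STAT5 wild-type cells. The last 2 genes exceeded background in STAT3 wild-type cells alone, and barely.

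Moxd1 and Steap4 are also the members whose promoter windows hold the STAT motif TTCNNNGAA. It was found for 2 of the 46 genes with a RefSeq promoter (4.35%), against 9.55% of 27025 genes, and its reverse complement is the same motif. With the spacer 1 base longer, it was found for 7 genes (15.2%), against 8.01%. AP-1 motifs (TGANTCA, both strands) were found for 5 genes (10.9%, against 8.97%), and the nuclear receptor element AGGTCA (both strands) for 5 genes (10.9%, against 18.1%). The heat shock element of 3 alternating repeats, also added after the values were seen, was found for 0 genes (against 0.662%). The windows span 300 bases and say nothing of enhancers. The 2 windows with TTCNNNGAA are shown with the match in capitals, on the + strand, for Moxd1 at chr10:24223267-24223566 and Steap4 at chr5:7960222-7960521.
Moxd1: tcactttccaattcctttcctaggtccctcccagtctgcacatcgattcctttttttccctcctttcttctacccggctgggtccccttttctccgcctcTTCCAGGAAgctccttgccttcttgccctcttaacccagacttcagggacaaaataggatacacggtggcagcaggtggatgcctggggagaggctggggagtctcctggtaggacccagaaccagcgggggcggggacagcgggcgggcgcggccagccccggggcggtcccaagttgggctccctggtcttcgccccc
Steap4: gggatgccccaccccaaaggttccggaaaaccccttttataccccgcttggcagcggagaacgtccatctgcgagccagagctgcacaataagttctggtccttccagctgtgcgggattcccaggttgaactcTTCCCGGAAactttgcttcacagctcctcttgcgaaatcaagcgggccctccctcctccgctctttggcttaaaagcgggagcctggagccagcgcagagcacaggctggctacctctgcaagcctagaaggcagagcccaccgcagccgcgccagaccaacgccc
The matches, TTCCAGGAA and TTCCCGGAA, begin at position -150 from the start of Moxd1 and -116 from that of Steap4.

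Receptors, channels and other membrane proteins numbered 9. Tmem176a and Tmem176b encode related proteins with 4 membrane spans, close to the MS4A family, that are known from dendritic cells and from lymphocytes that express RORγt. Tmem176a read 7.52 in STAT3-deficient against 12.11 in STAT3 wild-type cells and 13.52 in STAT5-deficient against 12.19 in STAT5 wild-type cells. Tmem176b read 7.85 in STAT3-deficient against 11.84 in STAT3 wild-type cells and 13.30 in STAT5-deficient against 12.04 in STAT5 wild-type cells. Both genes were above background on all 4 arrays, lowest in STAT3-deficient cells, highest in STAT5-deficient cells and nearly equal in the wild-type cultures. They lie head to head, and 1 of the 2 promoter windows of Tmem176a, at chr6:48841233-48841532 on the + strand (RefSeq, GRCm38.p6), shares 208 bases with a window of Tmem176b on the opposite strand. It is shown for that overlap, with the shared bases in capitals.
Tmem176a: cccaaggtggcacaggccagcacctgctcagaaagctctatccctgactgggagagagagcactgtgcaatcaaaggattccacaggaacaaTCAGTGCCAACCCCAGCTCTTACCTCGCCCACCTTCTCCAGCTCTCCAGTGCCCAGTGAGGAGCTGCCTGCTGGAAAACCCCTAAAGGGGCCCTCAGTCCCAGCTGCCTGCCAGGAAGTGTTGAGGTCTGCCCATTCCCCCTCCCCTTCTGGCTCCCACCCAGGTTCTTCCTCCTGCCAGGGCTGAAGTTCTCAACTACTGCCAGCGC
None of the motifs searched was found in this window, which says only that these letters are not in it. The other window of Tmem176a, at chr6:48841406-48841705, shares 219 bases with the same Tmem176b window. Both of these hold the metal core at the same bases, read on opposite strands. It is TGCACAC at -96 from the start of Tmem176a and GTGTGCA at -192 from that of Tmem176b. The same site thus counts for both genes in the share of genes with the core.

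Of the other membrane proteins, Xkrx, of the XK family, read 5.63 in STAT3-deficient against 8.41 in STAT3 wild-type cells and 8.72 in STAT5-deficient against 7.18 in STAT5 wild-type cells. Gpr65, a proton-sensing receptor, read 8.80 in STAT3-deficient against 10.41 in STAT3 wild-type cells and 11.55 in STAT5-deficient against 10.52 in STAT5 wild-type cells. Asic3, an acid-sensing ion channel, read 5.19 in STAT3-deficient against 7.0 in STAT3 wild-type cells and 7.97 in STAT5-deficient against 6.19 in STAT5 wild-type cells. Gpr65 and Asic3 thus both encode sensors of extracellular acid, and Gpr65 was above background on every array whereas Asic3 was not. Cysltr2, a receptor for cysteinyl leukotrienes, read 4.99 in STAT3-deficient against 7.66 in STAT3 wild-type cells and 7.55 in STAT5-deficient against 6.44 in STAT5 wild-type cells. Its relative Cysltr1 was lower in both comparisons, at -1.69 and -1.99. Kcnmb4, a subunit of the large calcium-activated potassium channel, was at -1.26 and 1.11, and the transcript Kcnmb4os2, named as its opposite strand, at -1.60 and 0.99. Mc2r, the receptor of the pituitary hormone ACTH, and Abcb11, the bile salt pump of the liver, had no value above 6.60.

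Signalling and cytoskeletal proteins made up 11 genes. Gem, a small GTPase that inhibits calcium channels, read 6.26 in STAT3-deficient against 10.21 in STAT3 wild-type cells and 10.25 in STAT5-deficient against 8.56 in STAT5 wild-type cells. Bcar3, an adaptor of integrin signalling, read 5.41 in STAT3-deficient against 7.85 in STAT3 wild-type cells and 7.98 in STAT5-deficient against 4.74 in STAT5 wild-type cells. Both reached almost the same high value in their 2 high cultures. Bcar1, the scaffold protein to which BCAR3 binds, was at -1.37 without STAT3 and 0.20 without STAT5. Lrrk2, a large kinase linked to Parkinson's disease in humans, read 5.37 in STAT3-deficient against 7.89 in STAT3 wild-type cells and 8.71 in STAT5-deficient against 6.91 in STAT5 wild-type cells. Syn1, a synaptic vesicle protein of neurons, read 6.92 in STAT3-deficient against 9.70 in STAT3 wild-type cells and 10.76 in STAT5-deficient against 9.56 in STAT5 wild-type cells. Txk, a T cell kinase of the Tec family, read 8.38 in STAT3-deficient against 9.77 in STAT3 wild-type cells and 9.72 in STAT5-deficient against 8.58 in STAT5 wild-type cells. Arhgap39, Stard8, Nav2, Sh3bgrl2, Cep290 and Krt6b complete the group, at -2.58 to -1.30 without STAT3 and 1.10 to 2.04 without STAT5.

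Among regulators of transcription and RNA, Tox2, a factor that promotes the follicular helper fate, read 8.86 in STAT3-deficient against 10.60 in STAT3 wild-type cells and 11.77 in STAT5-deficient against 9.65 in STAT5 wild-type cells. Msc, which encodes the bHLH repressor musculin, read 5.74 in STAT3-deficient against 7.08 in STAT3 wild-type cells and 8.35 in STAT5-deficient against 6.25 in STAT5 wild-type cells. Pcbp3, an RNA-binding protein, read 10.50 in STAT3-deficient against 11.79 in STAT3 wild-type cells and 12.16 in STAT5-deficient against 10.06 in STAT5 wild-type cells. Unlike Tox2, the related gene Tox was at 0.94 and 1.05, higher in both pairs. Of the 3 relatives of Pcbp3, 0 passed 2-fold in either comparison, too few genes to set against the shares over all genes. Of 14 follicular helper genes compared, Tox2 included, 5 were lower and 4 higher without STAT3, and 5 were higher and 0 lower without STAT5. Over all genes compared, 7.23% were lower and 2.85% higher without STAT3, and 1.86% were higher and 1.74% lower without STAT5. Bcl6, the regulator of that fate, was at -0.67 and 1.59, so it met the second threshold and missed the first. Mab21l2 and Foxb2, developmental genes, were at -2.25 and -1.03 without STAT3 and at 1.40 and 1.33 without STAT5.

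Enzymes and chaperones numbered 8. Ak1, an adenylate kinase, read 6.40 in STAT3-deficient against 8.89 in STAT3 wild-type cells and 10.10 in STAT5-deficient against 8.49 in STAT5 wild-type cells. Gcnt1, which builds the branched O-glycans of selectin ligands, read 5.99 in STAT3-deficient against 7.48 in STAT3 wild-type cells and 8.44 in STAT5-deficient against 6.91 in STAT5 wild-type cells. The related enzyme gene Gcnt2 was lower in both comparisons, at -6.13 and -1.04. Hspa1a, an inducible heat shock protein, read 6.94 in STAT3-deficient against 8.67 in STAT3 wild-type cells and 7.83 in STAT5-deficient against 6.32 in STAT5 wild-type cells. Its near-identical copy Hspa1b was at -2.07 and 0.90, just short of the second threshold, and hybridisation to the other copy cannot be told apart. Upb1, of pyrimidine breakdown, Acaa1b, a peroxisomal thiolase, and Nmrk1, a nicotinamide riboside kinase, were at -1.82 to -1.26 without STAT3 and 1.36 to 2.21 without STAT5. Csl and Dnajc6 had their highest values at 6.36 and 7.59, and the last 2 genes, Zpbp2 and the transcript Aknaos, lay close to a threshold.

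The 4 arrays can also be read across the pairs, although these comparisons share arrays with the choice of genes and support nothing on their own. STAT5-deficient and STAT3 wild-type cells both kept STAT3, with STAT5 deleted in the first and IL-2 blocked in the second. Of the 57 genes, 39 differed by less than 2-fold between these cultures, 16 were higher in STAT5-deficient cells (3.36% of all genes compared were) and 2 lower (2.89%), with a median of 0.47. The 2 lower genes were Csf1 (-2.00) and Sema4f (-1.32). Vegfc, at 2.97, was farthest on the other side. The order STAT5-deficient, STAT3 wild type, STAT5 wild type, STAT3-deficient, highest first, held for 37 genes.

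On the low sides, STAT5 wild-type cells stood at least 2-fold above STAT3-deficient cells for 28 genes (8.14% of all genes compared) and at least 2-fold below for 0 (3.22%), with a median of 0.998. Both values lay under 6.20 for 18 of the genes, and with values under 6.20 raised to it this median was 0.23. For 15 genes the 2 values lay within 0.5, among them Csf1 (0.08) and Sema4f (0.02). For 13 genes the value in STAT5 wild-type cells instead lay within 0.5 of that in STAT3 wild-type cells, as for Tmem176a (0.08), Tmem176b (0.21), Olfm2 (-0.26) and Syn1 (-0.14). Between the wild-type cultures, 31 genes were lower in STAT5 wild-type than in STAT3 wild-type cells (2.95% of all genes compared) and 0 higher (2.35%). These cultures differ in floxed line as well as in IL-2, added in the first and blocked in the second, and the 2 cannot be told apart. The choice also asks for a STAT3 wild-type value above its partner and a STAT5 wild-type value below its own.

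**Figure D3:**
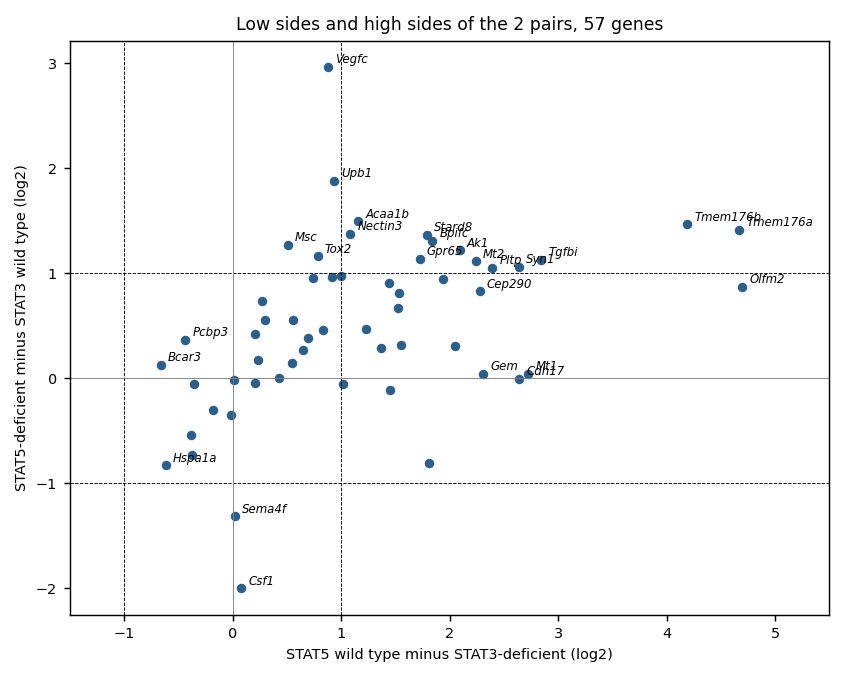
Each point is 1 of the 57 genes, with STAT5 wild type minus STAT3-deficient on the x axis and STAT5-deficient minus STAT3 wild type on the y axis, in log2, and dashed lines at 2-fold. Tmem176a, Tmem176b and Olfm2 lie beyond 4 on the x axis, Csf1 and Sema4f lie below -1 on the y axis, and Vegfc lies highest.

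Other probe sets of the same genes were not used in the choice and read the same RNA with other probes. Their genes were already chosen for these directions on the same arrays. Agreement is thus likely from the start, and it checks the measurement and not the cultures. There were 49 of them for 24 of the 57 genes, and 32 exceeded 6.20 on at least 1 array. Of these 32, 29 were lower without STAT3 and higher without STAT5 (90.6%), against 37.9% of 9347 probe sets of other genes, and 16 passed 2-fold in both comparisons (50%, against 0.246%). The 32 were picked for a high value on any array, which can be the array where the gene is high. The 29 include differences of any size, such as -0.12 and 0.08 for 1 probe set of Nectin3. Over all 49 probe sets, 40 were lower without STAT3 and higher without STAT5 (81.6%), as were 11 of the 17 at or under 6.20 (64.7%). The 3 other probe sets of Tgfbi were at -7.39, -6.18 and -3.06 without STAT3 and at 3.72, 4.18 and 0.91 without STAT5. Those of Cd24a were at -4.79 and -2.91 and at 2.57 and 2.90, and that of Pltp at -4.72 and 2.44. All 3 probe sets of Csf1 besides the chosen one were lower without STAT3, at -4.16 to -1.77, and higher without STAT5, at 0.52 to 1.52. The exceptions were 1 probe set each of Mt1, Bcar3 and Arhgap39, the last at -1.38 and -0.23. That of Bcar3, at 0.47 and -0.22, was near the background level throughout.

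**Figure D4:**
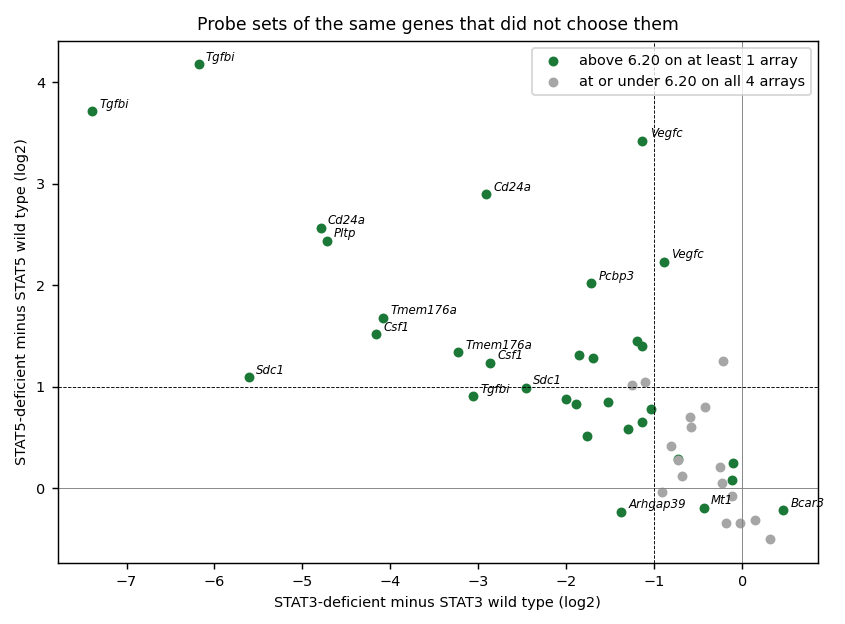
Each point is 1 of 49 probe sets that name one of the 57 genes and did not choose it, with the STAT3 difference on the x axis and the STAT5 difference on the y axis, in log2. Green points, above 6.20 on at least 1 array, lie to the left of 0 and above 0 in 29 of 32 cases, and grey points, at or under 6.20, lie beyond 2-fold in both in 2 of 17 cases.

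Position on the chromosomes was not used in the choice either. How often genes compared are neighbours was not counted over all genes, so the pairs below are a description only. RefSeq gene order (GRCm38.p6) placed 56 of the 57 genes, and 3 pairs were neighbours with no protein-coding gene between them: Mt2 and Mt1, Tmem176b and Tmem176a, and Gem and Cdh17. Unlike the first pair and the second, Gem and Cdh17 are unrelated in sequence family, and they differed by -3.95 and -4.39 without STAT3 and by 1.69 and 1.74 without STAT5. Aoc1 follows Tmem176a with 1 gene between them, for which there was no probe set of its own. Foxb2, Gcnt1 and Nmrk1 lie in 1 stretch of chromosome 19, but the 3 measured genes compared there in between, Prune2, Rfk and Ostf1, stayed within 2-fold in both comparisons, at -0.70 to 0.09 and -0.27 to 0.58.

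**Figure D5:**
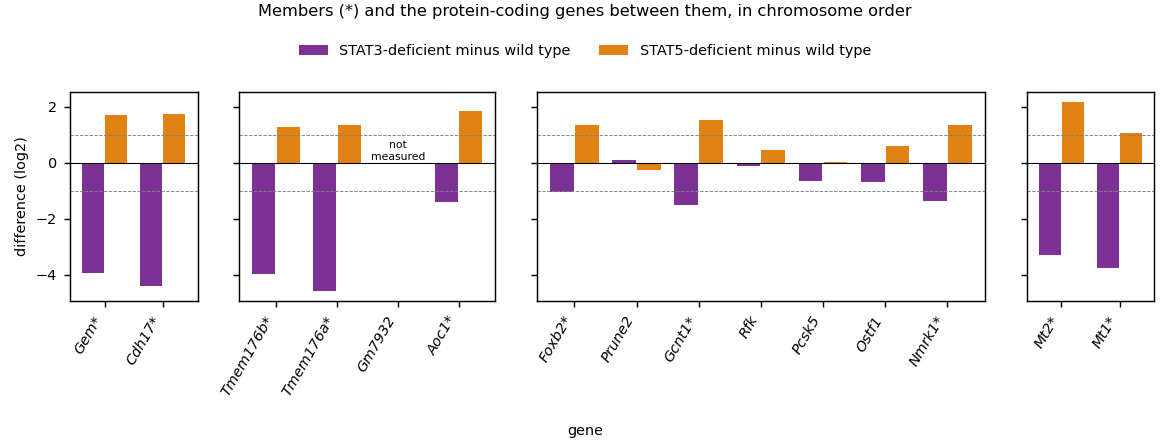
Bars give the STAT3-deficient minus wild-type (purple) and STAT5-deficient minus wild-type (orange) difference, in log2, of members (starred) and the protein-coding genes between them in chromosome order. Gem with Cdh17, Tmem176b with Tmem176a and Mt2 with Mt1 are direct neighbours with bars beyond -1 and 1, whereas Prune2, Rfk, Pcsk5 and Ostf1 stay inside.

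Known Th17 genes mostly met the first threshold alone, but 2 of the 11 compared met both, against 0.555% of all genes compared. Batf, 1 of these 2, only just met the second, at 1.001. For every list here, the shares over all genes without STAT3 are 7.23% lower and 2.85% higher. Without STAT5 these shares are 1.86% higher and 1.74% lower. Of 11 Th17 genes compared, 9 were lower without STAT3 and 0 higher, and 2 were higher without STAT5 (Il1r1 and Batf, both left out by symbol) and 0 lower, with medians of -1.85 and 0.41. Il17a, which encodes IL-17A, was at -4.90 and 0.59, and Ahr, the aryl hydrocarbon receptor, at -2.71 and 0.41. Of 14 genes that IL-6 and STAT3 induce, leaving out the deleted Stat3, 7 were lower and 0 higher without STAT3, and 3 were higher and 1 lower without STAT5. Of 8 genes that IL-2 and STAT5 repress, 3 were lower and 2 higher without STAT3, and 2 were higher and 1 lower without STAT5. Of 16 genes that IL-2 and STAT5 induce, 3 were lower and 3 higher without STAT3, and 1 was higher and 5 lower without STAT5, with medians of -0.38 and -0.44. Socs2, a known STAT5 target, was at 1.86 and -3.12, opposite in both signs to the 57 genes, and Socs3, a known STAT3 target, was at -4.82 and -0.45. Foxp3, the regulator of regulatory T cells, was above background in STAT5 wild-type cells alone, at 7.73, so its differences were not measured exactly.

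Markers of other cells were looked at because several members are best known outside T cells. The 5 B cell markers summed, on the linear scale, to 282 in STAT3-deficient and 333 in STAT3 wild-type cells, and to 361 in STAT5-deficient and 276 in STAT5 wild-type cells, and 2 of them were under background on all arrays. The 7 myeloid markers summed to 416 in STAT3-deficient and 403 in STAT3 wild-type cells, and to 422 in STAT5-deficient and 366 in STAT5 wild-type cells, and 5 of them were under background on all arrays. The 8 stromal and epithelial markers summed to 674 in STAT3-deficient and 766 in STAT3 wild-type cells, and to 577 in STAT5-deficient and 575 in STAT5 wild-type cells, with 5 under background throughout. All 4 mast cell and both erythroid markers were under background on all arrays. Of these 5 lists, only 3 B cell, 2 myeloid and 3 stromal and epithelial genes were compared, and 0 passed 2-fold in either comparison. Over all genes compared, 7.23% were lower and 2.85% higher without STAT3, and 1.86% were higher and 1.74% lower without STAT5. With so few genes, 0 cannot be told apart from these shares. The 5 dendritic cell markers summed to 2177 in STAT3-deficient and 955 in STAT3 wild-type cells, and to 956 in STAT5-deficient and 1105 in STAT5 wild-type cells. Their 1 gene past 2-fold was Cd74, the invariant chain of MHC class II, at 3.06 without STAT3, while Itgax, which encodes CD11c, was under background throughout. The 4 regulatory T cell markers summed to 6443 in STAT3-deficient and 7374 in STAT3 wild-type cells, and to 6665 in STAT5-deficient and 8790 in STAT5 wild-type cells. Of these, Ikzf2 was at 3.74 without STAT3 and -0.20 without STAT5, and Ikzf4 at 0.66 and -1.25, while Foxp3 was the second gene past 2-fold without STAT5. Of the 3 NK, 2 CD8 T cell and 1 gamma delta T cell markers on the array, 1, 2 and 1 were compared. Among those, 0 passed 2-fold in either comparison, too few genes to set against the shares over all genes. The dendritic sum was higher where the 57 genes were lower, but its genes did not move together. Without STAT3, H2-Ab1 was at -0.75, Flt3 at -0.04 and Zbtb46 at 0.02, beside Cd74 at 3.06. Without STAT5, H2-Ab1 was at -0.59 and Flt3 at -0.65, while Cd74 was at 0.28 and Zbtb46 at 0.36. The regulatory sum was lower in both deficient cultures than in their controls, but in the STAT3 pair its genes differed in direction. There Il2ra was at -0.89, while Ikzf2 and Ikzf4 were higher and Foxp3 was under background in both cultures. Without STAT5 all 4 genes were lower, with Il2ra at -0.30. The part of these markers in the result was not tested.

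At the edges of the choice, Zpbp2 (1.02), Gpr65 (1.02), Aknaos (1.05) and Mc2r (1.06) lay just inside on the STAT5 difference and Foxb2 (-1.03) on the STAT3 difference. Tnfrsf21 (0.997), Glis1 (0.995), Tpbg (0.990) and Wdfy2 (0.990) met the first threshold and just missed the second, and Proc (-0.987) the reverse. Outside the choice, the genes whose 4 values followed the mean of the 57 genes most closely in shape were Llgl2, Cep250, Dnajb9, Tram2 and Hacd1, with Pearson correlations of 0.9992 to 0.9998 over 4 points.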

How the data were processed

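Total RNA of 4 cultures, 1 array each, was hybridised to Affymetrix mouse arrays. The authors deposited 1 value per probe set, made with Affymetrix Power Tools, per the submitters' processing notes, and read here as log2 from its range of 2.48 to 15.09. No source used here gives the algorithm, log base or genome build.

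Of 45101 probe sets, 34958 named 1 gene, 932 several and 9211 none in the platform annotation. Each of 18194 genes was represented by its probe set with the highest mean, and the 12440 genes with a value above 6.20, the median of all values, were compared. A gene was chosen where it was at least 2-fold lower without STAT3 and higher without STAT5. The members and lists were chosen with earlier results of these data known, and the grouping by role was made after values were seen. The 20 genes with the widest gap between both differences are given on every array.

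With 1 array per group no test was possible, so precision is limited by how few arrays there are. The search was tested on simulated data. Alternatives changed the probe set, filter, scaling, threshold and floor. Python 3.11.15, pandas 2.3.3 and statsmodels 0.14.6 were used. RefSeq promoters (GRCm38.p6) matched 46 of the 57 genes. None was matched for Arhgap39, Cd24a, Cdh17, Crtam, Gem, Krt6b, Lum, Mc2r, Msc, Pcbp3 and Spon1.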

Additional observations from a re-analysis of the deposited data

Results flagged for a closer look

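Among 3764 probe sets above background that name several genes or none, and so entered no comparison, 14 (0.372%) were at least 2-fold lower without STAT3 and at least 2-fold higher without STAT5. They are listed because these probe sets lie outside the main measurement, and their share is below the 0.555% of named genes that met both thresholds. Of the 14, 3 name several genes and 11 name none. The first by gap names Il22, a Th17 cytokine, together with its copy Iltifb, and read 3.88 in STAT3-deficient against 7.19 in STAT3 wild-type cells and 8.20 in STAT5-deficient against 6.91 in STAT5 wild-type cells.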

How the results depend on the processing

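No paired analysis was possible because each group had 1 array. The rule chose 57 genes as reported, 33 with the filter at the 75th percentile, 223 at a 1.5-fold threshold, 15 at a 3-fold threshold and 37 with values raised to the median. Of the 57 genes themselves, 33, 15 and 37 passed under the stricter filter, the 3-fold threshold and the raised values. The median STAT3 difference was then -2.49 (filter), -2.49 (3-fold) and -1.40 (raised), and it was -1.55 after array median centring and -1.52 after loess centring. At 3-fold the median STAT5 difference was 2.12. STAT5-deficient minus STAT3 wild type had a median of 0.74 with the filter and 0.97 at 3-fold. STAT5 wild type minus STAT3-deficient had 1.52 with the filter, 1.53 at 3-fold and 0.23 with raised values. The filter and the 3-fold threshold leave fewer genes in these medians by construction (33 and 15). The medians cover 55 genes after array median centring, and all 57 after loess centring and with raised values, whether or not they still passed. Of the 57 genes, 49 still passed both thresholds after array median centring and 44 after loess centring. The share of other probe sets lower without STAT3 and higher without STAT5 was 100% with the filter, over 16 probe sets. That filter keeps probe sets by a high value on any array, which can be the array where the gene is high. The 100% is therefore no support for the choice. Without probe sets ending in _s_at, _x_at or _a_at, Mt1 reversed to -0.19 without STAT5, and the cause was not tested. Of the values for single genes, 354 kept their direction and size within the spread between probe sets, 175 moved by more and 1 reversed. The 33 genes with 1 probe set cannot change when probe sets are averaged, and those values are counted as kept. Both calls held in all 7 stricter alternatives for Cd24a, Cdh17, Lum, Mt2, Pltp, Sh3bgrl2 and Tgfbi, and under both centrings for 42 genes. Cdh17, Lum and Mt2 each have 1 probe set, without those endings. The alternatives that changed the probe set could therefore not alter their calls.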
